A study of Tupaia belangeri with 6 samples.

Results

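The 10 transcripts described here are long intergenic features of the tree shrew (TS) gene models whose RNA was concentrated in 1 or 2 classes of hippocampal nuclei: LINC-SUCLG1-5, LINC-SUCLG1-12, LINC-NPM1-44, LINC-KHDRBS3-6, LINC-FADS1-2, LINC-RPL5-117, LINC-RPL5-39, LINC-RPL5-127, LINC-POU3F1-1 and LINC-UBE2E1-11. They were chosen by name for their levels across cell classes in these same libraries, so those levels are a description and carry no test. The count matrices list 83605 features, of which 31776 carry a LINC- name, and all 10 members were found. The files identify each of them by this name alone, and their coordinates, lengths and sequences are not given in the sources used here. Single-nucleus RNA sequencing was done on the hippocampus of aged TSs (Tupaia belangeri), small mammals close to primates. The control group held 3 libraries from aged TSs that were healthy, and the ALP group held 3 libraries from age-matched TSs with Alzheimer's-like pathology, a naturally arising state. The study selected ALP animals by slow passage through a maze. It then described the groups by other behavioral tests, by immunostaining that included amyloid and phosphorylated tau, and by brain imaging. Neither group carried a transgene or received a treatment in the labels, and the sex of the animal behind each library is not given there. The study's methods describe hippocampi from 3 ALP and 3 control TSs, and the labels number the libraries 1 to 3 in each group without tying a library to an animal, so p-values measure the spread between libraries.

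Long intergenic noncoding RNAs are transcribed from stretches between protein-coding genes and are not known to be translated. They are often spliced and kept in the nucleus, where single-nucleus libraries can capture them. They are usually less abundant than messenger RNAs and commonly restricted to fewer cell types than coding genes. The names used here follow a nearby or related coding gene and do not state a function. Some features so named can be unannotated ends of coding transcripts, and a count per feature does not tell these apart.

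After filtering, 28233 of 37603 barcodes were kept, from 1614 in control 2 to 7022 in control 1, with median depths of 1502.5 to 2187.5 unique molecular identifiers (UMIs, each marking 1 captured RNA molecule) per nucleus. Any pair of libraries shared at most 12 barcodes, and no library shared more than 0.310% of its kept barcodes with another. Clusters were given class names from lists of coding markers, and because the names rest on rebuilt clusters they are written Astro-like (astrocytes), OPC-like (oligodendrocyte progenitors), Oligo-like (oligodendrocytes), Gran-like (dentate granule neurons), Pyra-like (pyramidal neurons), InN-like (inhibitory neurons), Micro-like (microglia), Endo-like, Mural-like and Ependymal-like. A further 3943 nuclei (14.0%) stayed unnamed. Several of the 10 transcripts were themselves among the leading features of a cluster, but 93.8% of nuclei received the same class when every LINC- feature was left out of the clustering. That share was lowest, among named classes, for Pyra-like nuclei at 86.4%, and it was 74.7% for unnamed nuclei. Control 2 contributed 57 Gran-like and 169 Oligo-like nuclei, the fewest of any library. A level is given in CPM, the UMIs of the transcript per 1000000 UMIs of the class in a library, as the mean ± SD of 6 libraries. Fewer transcripts per nucleus and fewer transcript-bearing nuclei cannot be told apart in these sums.

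The 10 transcripts fell into 5 leading classes. LINC-SUCLG1-5 and LINC-SUCLG1-12 were highest in Astro-like nuclei, LINC-NPM1-44 and LINC-KHDRBS3-6 in OPC-like nuclei and LINC-FADS1-2 in Oligo-like nuclei. The 3 LINC-RPL5 transcripts were highest in Gran-like nuclei, and LINC-POU3F1-1 and LINC-UBE2E1-11 in Pyra-like nuclei. For the first 8 of them the leading class was highest in 6 of 6 libraries, and its lowest library lay above the highest library of the next class. LINC-POU3F1-1 and LINC-UBE2E1-11 were led by Pyra-like nuclei in 5 of 6 libraries. Among the 2199 LINC- features with at least 100 UMIs in kept nuclei, the leading class exceeded the next by a median of 1.47-fold, and 7.55% of features reached 5-fold. Those background values came from libraries summed, with 1 added to each CPM. By means of 6 libraries, the 10 transcripts ranged from 1.86-fold for LINC-UBE2E1-11 to 72.8-fold for LINC-KHDRBS3-6, 8 of them above 5-fold, as their choice implies. On the background's measure these 2 were at 1.70 and 46.5. Together they held 38767 UMIs in kept nuclei, 0.257% of the UMIs of all LINC- features, which themselves took 24.1% of all UMIs.

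**Figure D1:**
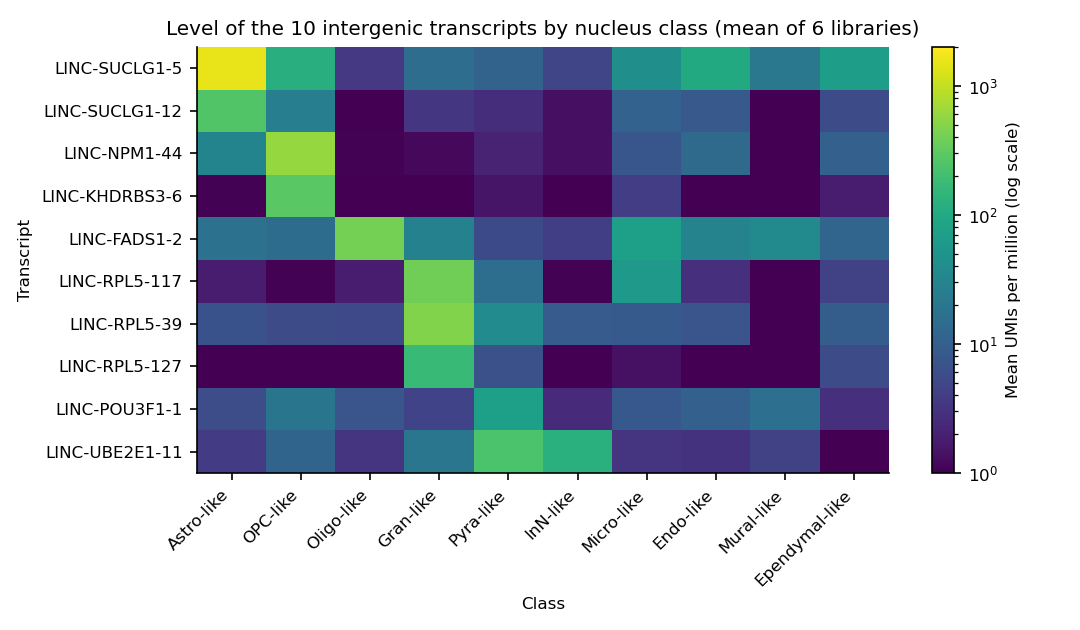
Level of each of the 10 intergenic transcripts (rows) in the 10 named classes (columns), as the mean CPM of 6 libraries on a log color scale that starts at 1. In each row the leading class is the brightest cell, and LINC-UBE2E1-11 was at 232 CPM (Pyra-like) and 125 CPM (InN-like). Brightness is shared by all rows, so a cell outside the leading class can exceed the leading cell of another row. LINC-SUCLG1-5 at 121 CPM in OPC-like nuclei, for example, exceeds LINC-POU3F1-1 at 73.4 CPM in Pyra-like nuclei.

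Astrocytes clear glutamate, buffer potassium and supply neurons with metabolites, and both LINC-SUCLG1 transcripts were concentrated in them. LINC-SUCLG1-5 was at 1357, 1546 and 1469 CPM in the Astro-like nuclei of control 1, 2 and 3, and at 1817, 1338 and 1669 CPM in ALP 1, 2 and 3. Its mean of 1533 ± 186 CPM (SD, n = 6) compared with 121 ± 48.4 in OPC-like nuclei, the next class, a ratio of 12.6. Its rank was 24 of 83605 features by UMIs in Astro-like nuclei. Nuclei with at least 1000 UMIs were thinned to 1000, and shallower nuclei were left out of every thinned share. That kept 3065 of 3194 Astro-like, 6934 of 8382 Oligo-like and 748 of 1405 Micro-like nuclei. After thinning, 69.0% of Astro-like nuclei held at least 1 UMI of LINC-SUCLG1-5, against 8.87% of OPC-like nuclei. Without thinning, over all nuclei of each class, these shares were 82.5% and 14.1%, at median depths of 1891 and 1859 UMIs. LINC-SUCLG1-12 was less abundant and more uneven, at 173, 243 and 459 CPM in control and 293, 151 and 200 CPM in ALP libraries. Its mean was 253 ± 113 CPM (SD, n = 6), 9.91 times the 25.5 CPM of OPC-like nuclei. Of their UMIs in kept nuclei, 85.2% and 84.2% lay in Astro-like nuclei. Of Astro-like nuclei with a UMI of LINC-SUCLG1-5, 39.1% also held LINC-SUCLG1-12, and of those without it 12.9% did, at median depths of 1942 and 1596.5 UMIs.

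Coding markers of astrocytes were less concentrated than either transcript. The transcripts were chosen for their levels by class in these libraries, so comparisons with markers, here and below, are descriptive. The ratio of Astro-like nuclei to the next class was 7.40 for SLC1A2 and 3.86 for SLC1A3, the main glutamate transporters of astrocytes. It was 1.39 for AQP4, the water channel of astrocyte endfeet, and 1.41 for GFAP, the astrocyte intermediate filament, both with Ependymal-like nuclei next. All 8 astrocyte markers had lower ratios than LINC-SUCLG1-12. In UMIs, 7 of the 8 markers gave fewer than LINC-SUCLG1-5, and SLC1A3 gave more (3185 CPM). These are UMI counts not divided by length, because the lengths of the features are not given here, so they do not rank the genes by molecules. SUCLG1 itself, which encodes a subunit of the mitochondrial succinate-CoA ligase, was at 42.0 CPM in Astro-like nuclei and highest in Endo-like nuclei at 112 CPM.

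The 2 transcripts stand near each other in the feature list, at rows 57087 and 57091. Whether list order follows the genome is not given in the sources used here. Apart from each other, 2 of 2 features within 10 rows of LINC-SUCLG1-12 that had at least 100 UMIs were led by Astro-like nuclei, LINC-SUCLG1-23 and LINC-SUCLG1-2, against 6.43% of all features with that many UMIs. Within 10 rows of LINC-SUCLG1-5, 2 of 4 were, the others being LINC-CDH8-2 and CDH8-AS-1, led by Gran-like nuclei. This window was set after values had been seen. Across 31 clusters, LINC-SUCLG1-12 was the feature most like LINC-SUCLG1-5 of 19511 (Pearson r of log2(CPM + 1) = 0.91). Next came GPAM (0.91), which encodes an enzyme that starts glycerolipid synthesis, and EMX2 (0.90), a homeobox gene of the developing forebrain. These correlations share libraries and clusters, and are descriptive.

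OPCs divide and give rise to oligodendrocytes, and they contained the most concentrated of the 10 transcripts. LINC-NPM1-44 was at 633, 635 and 431 CPM in OPC-like nuclei of control libraries and at 637, 777 and 502 CPM in ALP libraries. Its mean of 603 ± 121 CPM (SD, n = 6) was 19.7 times that of Astro-like nuclei, 30.6 ± 36.3 CPM. The level in Astro-like nuclei varied over the libraries from 1.65 CPM in control 1 to 97.5 CPM in control 2, and without control 2 the ratio was 34.6. LINC-KHDRBS3-6 was at 294, 260 and 143 CPM in control and 338, 382 and 323 CPM in ALP libraries. Outside OPC-like nuclei it was close to its detection limit: Micro-like nuclei, the next class, were at 3.98 CPM from 9 UMIs. Its ratio of 72.8 rests on those 9 UMIs and lay between 41.1 and 98.8 over the alternatives tried. In thinned nuclei, LINC-NPM1-44 was found in 41.8% of OPC-like and 2.40% of Astro-like nuclei, and LINC-KHDRBS3-6 in 23.6% of OPC-like and 0.505% of Micro-like nuclei. Unthinned, the leading shares were 59.1% and 37.2%.

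Among 8 coding OPC markers, VCAN, a proteoglycan of the extracellular matrix, had a ratio of 27.4, between those of the 2 transcripts. PDGFRA, the growth factor receptor that defines OPCs, reached 453 CPM with a ratio of 2.07, Mural-like nuclei being next. LHFPL3 was the most detected, in 98.7% of thinned OPC-like nuclei, with a ratio of 6.77. LINC-NPM1-44 exceeded 7 and LINC-KHDRBS3-6 all 8 markers in ratio, while each was found in a smaller share of thinned nuclei than 4 or 5 of them. One of the 8, CSPG4, had only 9 UMIs in OPC-like nuclei. NPM1, the nucleolar gene named in the first transcript, had 0 UMIs in kept nuclei, which allows at most 0.0480 CPM from counting error alone. Whether reads of a gene with 0 UMIs could be counted under its name was not tested. Such a 0, here and for RPL5, UBE2E1, MOBP and NRGN, is therefore not read as absent expression. KHDRBS3, an RNA-binding splicing regulator, was at 393 CPM in OPC-like and 715 CPM in Pyra-like nuclei, so its order of classes differed from that of LINC-KHDRBS3-6.

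Both OPC transcripts had list neighbors led by the same class. Within 10 rows of LINC-KHDRBS3-6, 5 of 8 features with at least 100 UMIs were led by OPC-like nuclei, against 7.67% of all such features. They were RPL12-AS-5, LINC-RPL12-14, LINC-RPL12-22, LINC-RPL12-33 and LINC-RPL12-38, all on the same side in the list. LINC-KHDRBS3-3 and LINC-KHDRBS3-7, which carry the same stem, were led by Pyra-like and Ependymal-like nuclei. Near LINC-NPM1-44, 2 of 3 were OPC-led, LINC-NPM1-41 and LINC-NPM1-43. The features most like LINC-NPM1-44 over clusters were LINC-NPM1-41 (r = 0.92), LINC-PTPRZ1-1 (0.91) and LINC-NKX2-2-2 (0.91). For LINC-KHDRBS3-6 they were LINC-RPL12-33 (0.94), LINC-RPL12-22 (0.94) and LINC-NPM1-43 (0.93), and the 2 members had r = 0.89 with each other.

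Oligodendrocytes form the myelin sheath, and LINC-FADS1-2 marked them with a ratio of 5.60. Its levels in Oligo-like nuclei were 239, 228 and 345 CPM in control and 660, 404 and 570 CPM in ALP libraries, 408 ± 176 CPM over all 6. Micro-like nuclei were next at 72.9 ± 41.4 CPM, and in thinned nuclei the shares were 28.2% and 5.05%. Markers of oligodendrocytes showed the same second class: MOG, a component of myelin, had a ratio of 4.38 and ST18, a transcription factor, 4.19, each with Micro-like nuclei next. LINC-FADS1-2 exceeded all 6 coding markers that had UMIs. One of the 6 was MBP, the gene of myelin basic protein, with only 7 UMIs in Oligo-like nuclei, and MOBP had 0 UMIs in kept nuclei. FADS1, a fatty acid desaturase, was at 29.8 CPM in Astro-like and 2.77 CPM in Oligo-like nuclei.

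Within the Oligo-like class, LINC-FADS1-2 was uneven. It was at 903 CPM in cluster 6 (1765 nuclei, with TNFAIP6, SYT10 and HAPLN2 among its leading genes), where it was itself the first leading feature. Cluster 5 (VSIG10L2) was at 388 CPM, cluster 8 (ELOVL7) at 371 and cluster 11 (CYYR1) at 228, with 364 CPM in cluster 27 (NDST4), which had only 62 nuclei. Cluster 2 (NINJ2), the largest with 2336 nuclei, was at 61.5 CPM, close to the 69.2 CPM of Micro-like nuclei. The genes most like it over the 31 clusters were PLEKHH1 (r = 0.96), HAPLN2 (0.95), which encodes a link protein at nodes of Ranvier, and IL33 (0.95), a nuclear alarmin. No feature within 10 rows of it in the list reached 100 UMIs.

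**Figure D2:**
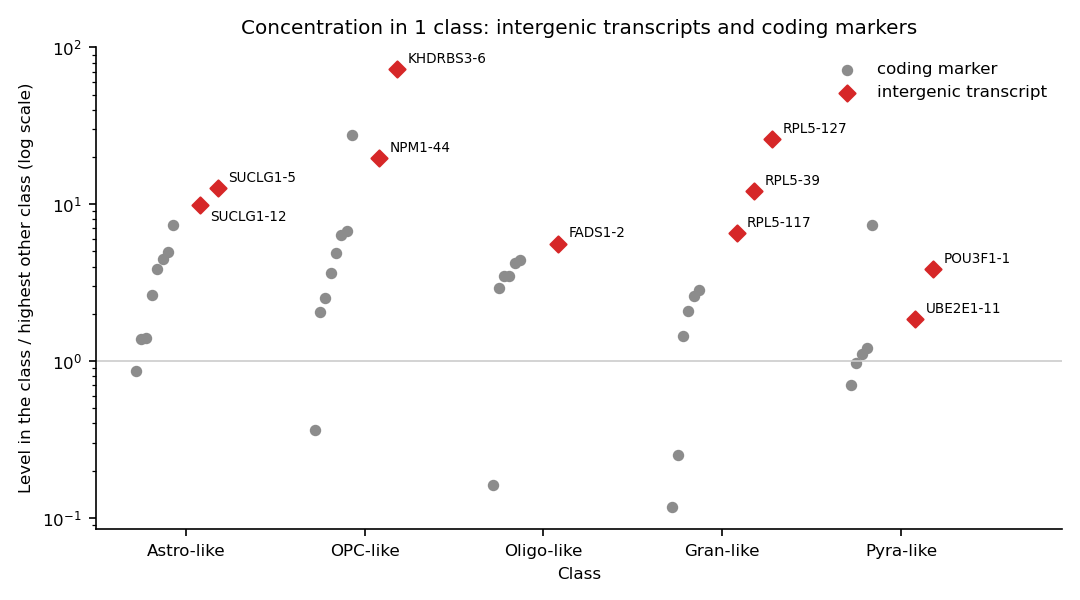
Level in the named class divided by the highest level in any other class (log scale), for the intergenic transcripts (red diamonds) and the coding markers with UMIs (gray circles) of 5 classes, each from means of 6 libraries. Among OPC markers VCAN, at 27.4, lies above LINC-NPM1-44, and 4 of 5 Pyra markers lie below both transcripts of their class. The transcripts were chosen for their levels by class, so the comparison is descriptive.

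Granule neurons of the dentate gyrus receive the main cortical input to the hippocampus, and the 3 LINC-RPL5 transcripts marked them. LINC-RPL5-39 was the highest, at 450, 644 and 786 CPM in Gran-like nuclei of control libraries and 365, 346 and 278 CPM in ALP libraries. LINC-RPL5-117 was at 374, 510 and 678 CPM in control and 317, 204 and 251 CPM in ALP libraries. LINC-RPL5-127 was at 202, 296 and 273 CPM in control and 106, 105 and 48.7 CPM in ALP libraries. For each of the 3, every control library lay above every ALP library, and 21.8% of all features tested in Gran-like nuclei had groups without overlap. Without the upper limit on genes, and in each of the 3 other clusterings, the separation held for LINC-RPL5-127 only of the 3. Without the limit LINC-RPL5-117 was at 286 CPM in control 1 and 333 CPM in ALP 1, and LINC-RPL5-39 at 338 and 356 CPM. The means were 478 ± 197, 389 ± 177 and 172 ± 101 CPM (SD, n = 6), with ratios to the next class of 12.1, 6.56 and 26.1. The second class differed: Pyra-like nuclei for LINC-RPL5-39 (39.6 CPM) and LINC-RPL5-127 (6.59 CPM), and Micro-like nuclei for LINC-RPL5-117 (59.3 ± 27.4 CPM). In Micro-like nuclei LINC-RPL5-39 was at 8.60 and LINC-RPL5-127 at 1.41 CPM, whereas LINC-RPL5-117 had a UMI in 5.66% of them after thinning. The 6 granule markers summed to 75.1 to 154 CPM in Micro-like nuclei of control libraries and to 67.0 to 153 CPM in ALP libraries, with 6 of 6 detected; their part in that level was not tested.

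The 3 ratios were lower under other settings. An unnamed cluster of 208 nuclei led by CLEC6A and GPNMB, genes of myeloid cells, held LINC-RPL5-117 at 190, LINC-RPL5-39 at 184 and LINC-RPL5-127 at 67.4 CPM, and 16.8% of its nuclei were marked as doublets. When clusters were built without LINC- features, Micro-like nuclei were second for all 3, and the ratios were 3.39, 5.74 and 6.16. Micro-like nuclei were also second for all 3 at resolution 1 and with 20 principal components. Without the upper limit on genes the ratios were 4.38, 5.76 and 4.70, with Mural-like nuclei next for LINC-RPL5-117 and LINC-RPL5-127. Gran-like nuclei led in every alternative tried. Among Pyra-like clusters, cluster 20 (FST) carried all 3, at 100, 111 and 39.9 CPM in the same order, with libraries summed. That cluster made up 31.6% of Pyra-like nuclei in control 1 and 0.633% to 7.53% in the other libraries.

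The granule markers separated the class less than any of the 3 transcripts. PROX1, the transcription factor that sets granule cell identity, had a ratio of 2.07, the calcium-binding CALB1 2.59 and the channel gene TRPC6 2.85. SEMA5A, a semaphorin, reached 696 CPM but only 1.44-fold over OPC-like nuclei, and C1QL2 and DSP were higher in another class (0.252 and 0.117). DSP had only 15 UMIs in Gran-like nuclei. In thinned Gran-like nuclei, LINC-RPL5-39 was found in 32.3%, LINC-RPL5-117 in 27.1% and LINC-RPL5-127 in 13.0%, compared with 48.3% for SEMA5A, 15.9% for PROX1, 13.3% for TRPC6 and 9.55% for CALB1. The unthinned shares of the transcripts were 59.9%, 53.1% and 30.4% at a median of 2754 UMIs.

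The LINC-RPL5 transcripts lie at rows 69371, 69373 and 69380 of the feature list, between FBXO33-AS-2 and the LINC-LRFN5 features. All 3 of these neighbors with at least 100 UMIs, FBXO33-AS-2, LINC-LRFN5-16 and LINC-LRFN5-15, were led by Gran-like nuclei too, against 9.38% of all features with that many UMIs. FBXO33-AS-2 was far more abundant, at 3428 CPM with all libraries summed. The stem in the name did not mark the class: of 11 LINC-RPL5 features with at least 100 UMIs, only these 3 were led by Gran-like nuclei. LINC-RPL5-40 was led by Pyra-like nuclei with a ratio of 10.4 (libraries summed, 1 added to each CPM). RPL5, which encodes a ribosomal protein, had 0 UMIs in kept nuclei. Over the 31 clusters, LINC-LRFN5-15 was most like LINC-RPL5-127 (r = 0.95), CTSLli2 most like LINC-RPL5-117 (0.91) and FBN2-AS-4 most like LINC-RPL5-39 (0.92). Gran-like nuclei with a UMI of LINC-RPL5-39 held LINC-RPL5-117 in 63.6% of cases, against 37.5% of those without, but they were also deeper (medians 3060 and 2317.5 UMIs).

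Pyramidal neurons are the excitatory output cells of the hippocampus, and their 2 transcripts were the least exclusive of the 10 under the study's filter. LINC-POU3F1-1 was at 47.6, 57.1 and 18.5 CPM in Pyra-like nuclei of control libraries and at 116, 72.8 and 129 CPM in ALP libraries. Its mean of 73.4 ± 41.9 CPM (SD, n = 6) was 3.84 times the 19.1 ± 3.00 CPM of OPC-like nuclei. In control 3 the Pyra-like level rested on 15 UMIs. LINC-UBE2E1-11 was at 10.1, 140 and 430 CPM in control and 341, 141 and 333 CPM in ALP libraries, with the lowest and the highest value both in the control group. Its mean was 232 ± 159 CPM in Pyra-like and 125 ± 74.6 CPM in InN-like nuclei, so the ranges over libraries overlapped, although within libraries Pyra-like nuclei were the higher in 5 of 6, control 1 being the exception. After thinning, LINC-POU3F1-1 was found in 6.97% of Pyra-like and 1.86% of OPC-like nuclei, and LINC-UBE2E1-11 in 13.1% of Pyra-like and 9.69% of InN-like nuclei.

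Each was restricted to part of its class. LINC-POU3F1-1 was highest in Pyra-like clusters 23 (POSTN), at 226 CPM, and 10 (PRSS16), at 158 CPM, with 51.4 CPM in cluster 13 (TSHZ2) and between 4.30 and 8.28 CPM in the other three. It was a leading feature of cluster 10. LINC-UBE2E1-11 was highest in cluster 10, at 421 CPM, in cluster 19, at 329 CPM, and in InN-like cluster 15 (CNR1, the cannabinoid receptor), at 275 CPM, while Pyra-like clusters 13, 17 and 20 had 20.5, 8.60 and 2.26 CPM. Cluster 19 made up 68.6% of Pyra-like nuclei in control 3 and 3.65% to 22.2% in the other libraries. Most UMIs of both transcripts came from barcodes with more than 2500 genes, which the study's filter removes: 76.6% for LINC-POU3F1-1 and 81.9% for LINC-UBE2E1-11. The corresponding range was 60.9% to 66.2% for the LINC-RPL5 transcripts and 12.9% to 21.5% for the 5 glial ones. Without that limit LINC-POU3F1-1 averaged 177 CPM with a ratio of 8.97, above LINC-FADS1-2 (5.30) and the 3 LINC-RPL5 transcripts (4.38 to 5.76). LINC-UBE2E1-11, at 2.71, was still the lowest of the 10.

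Of the 5 pyramidal markers with UMIs, 4 were less concentrated than both transcripts. CAMK2A, a kinase of excitatory synapses, had a ratio of 1.12, and NEUROD6, a neuronal transcription factor, 1.21. SLC17A7, which loads glutamate into synaptic vesicles, had 0.967 and TBR1, a transcription factor of excitatory neurons, 0.701. Gran-like nuclei were the other class for CAMK2A, SLC17A7 and TBR1. NRGN had 0 UMIs. POU3F1, which encodes a POU-domain transcription factor, was also highest in Pyra-like nuclei, at 9.33 CPM, and UBE2E1, a ubiquitin-conjugating enzyme, had 0 UMIs in kept nuclei. The features most like LINC-POU3F1-1 were ACOX3-AS-2 (r = 0.73), CA7 (0.72) and NEUROD6 (0.71), lower values than for any other member. LINC-UBE2E1-11 was most like LINC-UBE2E1-6 (0.92) and LINC-UBE2E1-20 (0.89), and 5 of 6 list neighbors with at least 100 UMIs were Pyra-led, against 5.92% of all such features. The lead of those 5 was small, however, between 1.02-fold (LINC-UBE2E1-5) and 1.30-fold (LINC-UBE2E1-16) over the next class with libraries summed.

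The second question was whether these transcripts differed between ALP and control TSs, a contrast that was not used to choose them. For each class, the counts of a library's nuclei were added up and every feature was fitted with edgeR's quasi-likelihood test. A call needed an adjusted p (Benjamini-Hochberg) below 0.05 and an absolute log2 fold change above 0.25. In their leading class, 2 of the 10 were called, LINC-FADS1-2 (higher in ALP) and LINC-RPL5-127 (lower), where 1.71% of all features tested in those 5 classes were called. The 3 control and 3 ALP libraries did not overlap for 6 of 10, against 22.2% of all features. That count was 4 in each of the 3 other clusterings and 3 without the upper limit on genes (LINC-KHDRBS3-6, LINC-FADS1-2 and LINC-RPL5-127). The median log2 fold change of the 10 was 0.24, 6 being higher and 4 lower in ALP, while the median over all features lay between −0.01 and 0.01 in each class. Over every class in which a member could be tested, 3 of 29 pairs of member and class were called, against 1.51% of all pairs, and 10 of 29 did not overlap, against 21.9%. The third call was LINC-FADS1-2 in Gran-like nuclei. With all kept nuclei summed, edgeR called none of the 10 and none of the 22749 features (0.0%), 4 of the 10 and 5323 of all having an unadjusted p under 0.05, while DESeq2 called 1740 features, including LINC-RPL5-127 and LINC-POU3F1-1.

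**Figure D3:**
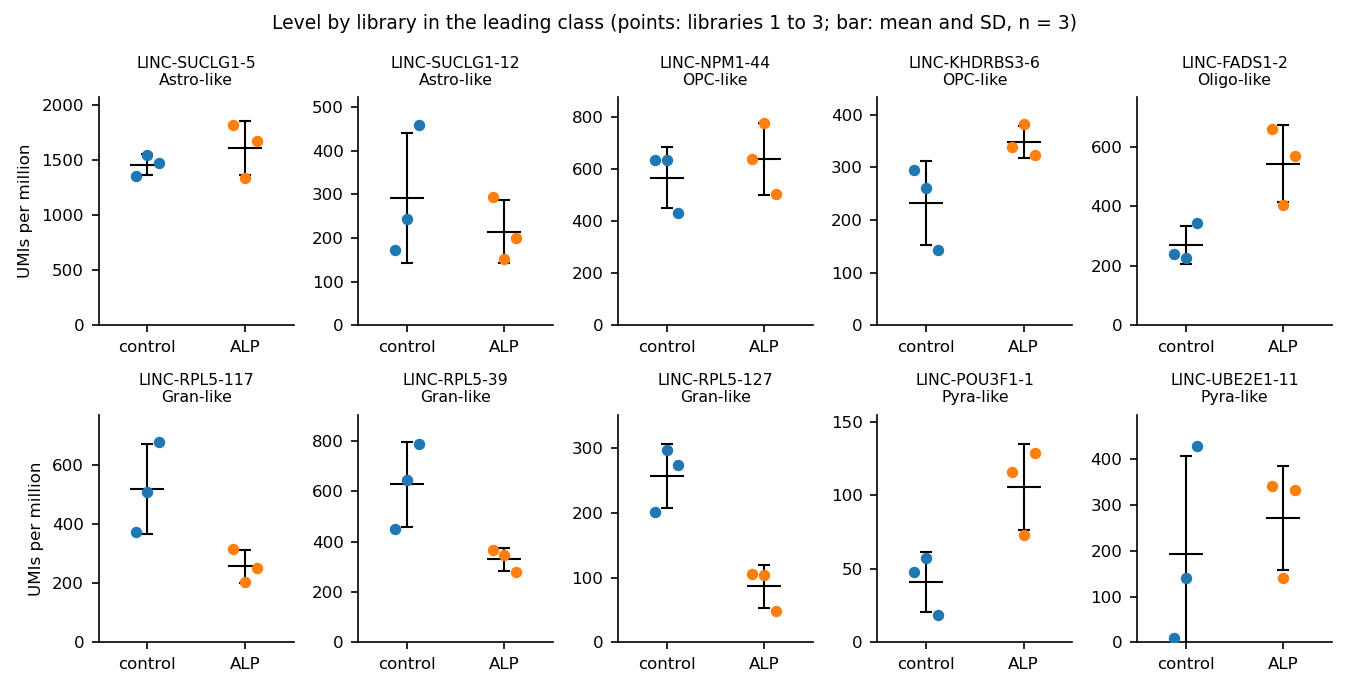
Level of each transcript in its leading class in CPM, 1 point per library, with the mean and SD (bars, n = 3) of the control (blue) and ALP (orange) groups and axes that start at 0. The groups do not overlap for LINC-KHDRBS3-6, LINC-FADS1-2, the 3 LINC-RPL5 transcripts and LINC-POU3F1-1. Of all features tested in the 5 leading classes, 22.2% have groups without overlap.

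LINC-FADS1-2 rose in the Oligo-like nuclei of ALP TSs. The 3 ALP libraries, between 404 and 660 CPM, all lay above the controls, between 228 and 345 CPM, with a log2 fold change of 1.09 (SE 0.24, edgeR adjusted p = 0.0267). In Oligo-like nuclei 5.04% of features were called, 2.01% as higher in ALP, and 23.0% had groups without overlap. The share of thinned Oligo-like nuclei with a UMI was 19.1% ± 4.71 in control and 37.2% ± 7.89 in ALP libraries (SD, n = 3 each). A two-sided exact permutation test gave p = 0.1, the smallest value that its 20 arrangements allow. The call was lost, with adjusted p between 0.0607 and 0.143, without control 1, control 3, ALP 1 or ALP 3. Of the 5 coding oligodendrocyte markers that could be tested in Oligo-like nuclei, 1 was called, OPALIN, a myelin membrane gene (log2 fold change 1.11, adjusted p = 0.0429), and 4 of the 5 had higher estimates in ALP. The summed markers were about equal, 5961 to 8341 CPM in control and 6079 to 7883 CPM in ALP libraries.

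The groups differed in the proportions of several Oligo-like clusters as well as in level. Cluster 6, where LINC-FADS1-2 was highest, made up 10.4%, 22.5% and 12.3% of Oligo-like nuclei in control 1, 2 and 3, and 32.6%, 21.5% and 33.6% in ALP 1, 2 and 3. These shares of cluster 6 overlapped, control 2 lying above ALP 2. Cluster 2, where LINC-FADS1-2 was lowest, made up 34.5% on average in control and 20.8% in ALP libraries. Clusters 5, 8 and 11, where its level lay between those of clusters 2 and 6, shifted in both directions. Cluster 5 averaged 12.1% in control and 36.3% in ALP libraries. Cluster 8 averaged 20.4% and 8.59%, and cluster 11 17.4% and 4.36%, in the same order. The shares of clusters 2, 5, 8 and 11 did not overlap between the groups. Within cluster 6 LINC-FADS1-2 was at 730, 542 and 788 CPM in control and 1070, 843 and 1011 CPM in ALP libraries, without overlap. Cluster 8 did not overlap either, at 289, 236 and 390 CPM against 558, 414 and 617 CPM. In clusters 5, 11 and 2 the libraries of the groups overlapped, and cluster 27 had too few nuclei for a value in every library. Over the whole Oligo-like class 23.0% of features had groups without overlap, and that share was not computed within clusters. The transcript helped to define cluster 6, so the proportions of the clusters are not independent of its level, and they were not tested.

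In 3 other classes the ALP libraries also lay above all controls for LINC-FADS1-2, where 21.8% (Gran-like), 16.2% (Micro-like) and 18.8% (OPC-like) of features had groups without overlap. In Gran-like nuclei it was at 9.41, 0 and 20.1 CPM in control, from 21, 0 and 18 UMIs, and at 55.8, 31.5 and 54.6 CPM in ALP libraries (log2 fold change 2.02, SE 0.46, edgeR adjusted p = 0.0498; 1.86% of features called, 0.389% as higher in ALP). The count of 0 in control 2 allows up to 14.3 CPM. The summed oligodendrocyte markers were also higher there, 200 to 609 CPM in control and 696 to 906 CPM in ALP libraries, with 5 of 7 detected and MBP and MOBP at 0, and their part in the call was not tested. In Micro-like nuclei the log2 fold change was 1.14 (edgeR adjusted p = 0.156; 0.957% called), with the same marker sum lower in ALP, at 1506 to 1567 against 1773 to 2002 CPM. In OPC-like nuclei it was 1.07 (adjusted p = 0.262). In Pyra-like nuclei the estimate was −0.79 (adjusted p = 0.394), with a marker sum of 195 to 487 CPM in control and 116 to 182 CPM in ALP libraries.

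LINC-RPL5-127 fell in the Gran-like nuclei of ALP TSs, and the other LINC-RPL5 transcripts had lower estimates. Its log2 fold change was −1.50 (SE 0.27, edgeR adjusted p = 0.0289), where 1.86% of features were called, 1.47% as lower in ALP. LINC-RPL5-117 had −0.96 (SE 0.24, edgeR adjusted p = 0.0611) and LINC-RPL5-39 −0.88 (SE 0.21, edgeR adjusted p = 0.0567), and neither passed the threshold. DESeq2 called both (adjusted p = 0.0187 for each). The share of thinned Gran-like nuclei with a UMI of LINC-RPL5-127 was 20.9% ± 3.27 in control and 8.19% ± 2.77 in ALP libraries (SD, n = 3), with exact permutation p = 0.1, the smallest possible. For LINC-RPL5-117 it was 36.5% and 22.0%, and for LINC-RPL5-39 42.6% and 27.4%, with the same p. The call of LINC-RPL5-127 was lost without control 3, ALP 1 or ALP 3 (adjusted p 0.0903, 0.116 and 0.171), with log2 fold changes of −1.41, −1.64 and −1.21.

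Gran-like nuclei formed 1 cluster of 2297 nuclei, 722 of them from control 1. When LINC- features were left out of the clustering there were 2 Gran-like clusters, and the groups differed in the proportions of those 2. These held more nuclei and were not a split of the same ones: cluster 6 alone held 760 from control 1. They were examined after values had been seen. Cluster 6 of that clustering (1712 nuclei) made up 77.9%, 75.4% and 71.1% of Gran-like nuclei in control 1, 2 and 3, and 46.7%, 54.6% and 47.9% in ALP 1, 2 and 3, with cluster 10 (1004 nuclei) holding the rest. Within cluster 6 LINC-RPL5-127 was at 155, 322 and 280 CPM in control and 130, 93.6 and 47.5 CPM in ALP libraries, without overlap. In cluster 10 it was at 140, 71.3 and 142 CPM in control and 63.7, 105 and 41.5 CPM in ALP libraries, where the groups overlapped and control 2 had 15 nuclei. LINC-RPL5-117 and LINC-RPL5-39 overlapped in both clusters. Over the whole Gran-like class 21.8% of features had groups without overlap, and that share was not computed within clusters. With 20 principal components there were also 2 Gran-like clusters. The cluster led by LINC-RPL5-127 held 66.8%, 75.0% and 66.5% of the Gran-like nuclei in control and 32.1%, 38.7% and 20.4% in ALP libraries. The part of these proportions in the fold changes was not tested.

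Of 6 coding granule markers, 5 could be tested in Gran-like nuclei and none was called. Their log2 fold changes lay between 0.08 and 0.43, opposite in sign to those of the 3 transcripts. The 6 markers summed to 1053 to 1140 CPM in control and 1074 to 1354 CPM in ALP libraries. Of the list neighbors, FBXO33-AS-2 had a log2 fold change of −0.06 (edgeR adjusted p = 0.893), LINC-LRFN5-16 −0.12 (adjusted p = 0.904) and LINC-LRFN5-15 −0.55 (adjusted p = 0.114). Outside Gran-like nuclei, LINC-RPL5-117 had −1.63 in Pyra-like nuclei (unadjusted p = 0.0371, edgeR adjusted p = 0.235) and −0.10 in Micro-like nuclei (adjusted p = 0.962). LINC-RPL5-39 had −0.30 in Pyra-like nuclei (adjusted p = 0.820) and −0.38 in InN-like nuclei (adjusted p = 0.691). None of these 4 was called. The differences between classes or genes were not tested. In Gran-like nuclei the summed microglial markers were at 21.1 to 69.2 CPM in control and 28.6 to 44.8 CPM in ALP libraries, and their part was not tested.

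**Figure D4:**
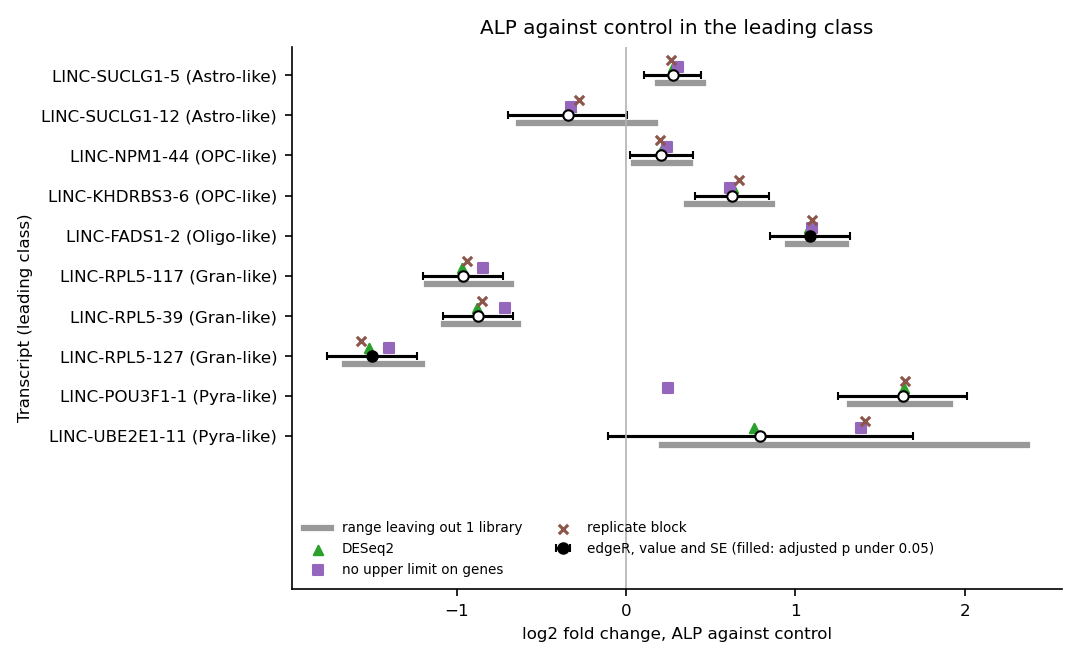
log2 fold change of ALP against control for each transcript in its leading class: edgeR value with its SE (circles, filled where the adjusted p is under 0.05), with DESeq2, the fit without the upper limit on genes, the fit with the replicate number as a block and the range over fits without 1 library. LINC-FADS1-2 (1.09) and LINC-RPL5-127 (−1.50) are filled, and LINC-POU3F1-1 moved from 1.63 to 0.25 without the limit.

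LINC-POU3F1-1 had the largest estimate of the 10 in its leading class, a log2 fold change of 1.63 (SE 0.38, edgeR adjusted p = 0.0864), and was not called. In Pyra-like nuclei edgeR called none of 14536 features (0.0%), with 2709 at an unadjusted p under 0.05, while DESeq2 called 437, LINC-POU3F1-1 among them (adjusted p = 0.00442). The ALP libraries, at 72.8 to 129 CPM, lay above the controls, at 18.5 to 57.1 CPM, and 24.1% of features tested there had groups without overlap. The thinned share was 3.89% ± 2.17 in control and 8.89% ± 2.10 in ALP libraries (SD, n = 3; exact permutation p = 0.1, the smallest possible). Clusters 10 and 23, which carried most of it, made up 25.2% and 2.15% of the Pyra-like nuclei in control and 42.7% and 7.29% in ALP libraries on average. The shares of cluster 10 overlapped, at 17.6%, 38.6% and 19.2% in control 1, 2 and 3 and 46.8%, 28.7% and 52.7% in ALP 1, 2 and 3. Those of cluster 23 did not, at 1.83%, 3.80% and 0.837% in control and 10.1%, 5.60% and 6.17% in ALP libraries. In control 3, cluster 19 made up 68.6% of Pyra-like nuclei. The part of this makeup in the estimate was not tested. Within cluster 10 the groups overlapped, at 206, 48.1 and 71.5 CPM in control and 155, 114 and 193 CPM in ALP libraries. Without the upper limit on genes the estimate was 0.25 (edgeR adjusted p = 0.717), with 232, 110 and 180 CPM in control and 177, 148 and 215 CPM in ALP libraries. The 5 pyramidal markers that could be tested had estimates between 0.31 and 0.97, all higher in ALP, and none was called.

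**Figure D5:**
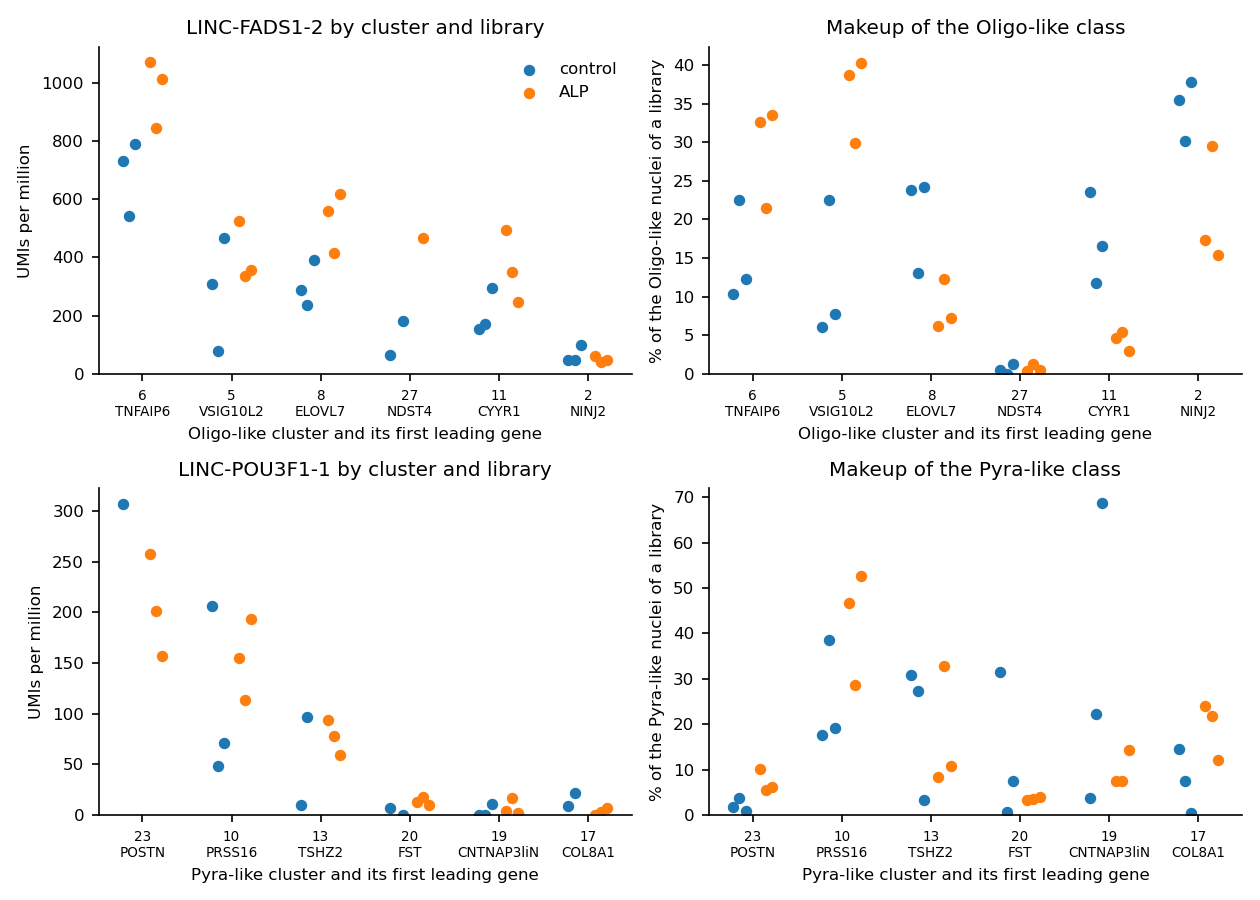
Left, level of LINC-FADS1-2 in 6 Oligo-like clusters and of LINC-POU3F1-1 in 6 Pyra-like clusters, in CPM for each library with at least 10 nuclei in the cluster. Right, percent of the class's nuclei of each library in those clusters; blue is control and orange ALP. LINC-FADS1-2 separated the groups in clusters 6 and 8, and LINC-POU3F1-1 in none of the clusters with 3 libraries of each group. The share of all features that separate the groups within a cluster was not computed.

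The remaining 5 transcripts were not called in their leading class. LINC-KHDRBS3-6 in OPC-like nuclei was higher in all 3 ALP libraries (323 to 382 CPM) than in the controls (143 to 294 CPM). Its log2 fold change was 0.63 (SE 0.22, edgeR adjusted p = 0.187). In that class 1.65% of features were called and 18.8% had groups without overlap. LINC-NPM1-44 in the same nuclei had 0.21 (SE 0.19, edgeR adjusted p = 0.656), and its 95% interval ran from −0.16 to 0.57. The 95% intervals given here are normal approximations from the SE and are narrower than the edgeR test implies. LINC-SUCLG1-5 had 0.27 (95% interval −0.06 to 0.61, edgeR adjusted p = 0.440) and LINC-SUCLG1-12 −0.35 (−1.03 to 0.34, adjusted p = 0.656) in Astro-like nuclei, where 0.267% were called. The 2 astrocytic transcripts thus had estimates of opposite sign, each with an interval that included 0, and that of LINC-SUCLG1-12 turned to 0.17 without control 3. LINC-UBE2E1-11 had 0.79 (−0.97 to 2.56, adjusted p = 0.679) in Pyra-like and 0.66 (adjusted p = 0.568) in InN-like nuclei, where 0.972% were called. Control 1 was lowest for it in both classes, and without that library the estimate in Pyra-like nuclei was 0.21.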

How the data were processed

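UMI counts per feature and barcode were deposited by the authors for 6 libraries as filtered matrices made with the 10x Genomics 3′ chemistry and Cell Ranger (version 3.1.0 in the submitters' processing notes, 6.1.2 in the matrix headers). The genome build and the use of strand in counting are not given in the sources used here. Barcodes with 200 to 2500 genes and under 5% mitochondrial UMIs were kept, as in the study, and clustered with scanpy 1.11.5 (30 principal components, resolution 2). Clusters were named from marker lists. Doublets were marked by a simulation-based caller and kept. The members, markers and lists were chosen with earlier results of these data known.

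Counts were summed per library and class (at least 10 nuclei) and tested with edgeR 4.0.16 (glmQLFit, TMM, filterByExpr with a minimum count of 10, Benjamini-Hochberg adjustment), with DESeq2 1.42.0 as an alternative. On simulated data, 4-fold changes in 200 features were recovered in 98% of cases in Gran-like, 95% in Oligo-like and 91.5% in Pyra-like nuclei. The features tested numbered 9304, 11167 and 13732 in the same order. These rates hold only for the spread between libraries that was simulated, which was set to the same value for every feature. Whether that spread was as wide as in the real libraries was not tested. The rates are therefore not read as the power to detect changes in the transcripts described here. The study's mixed model over nuclei with a sex term was not followed, since nuclei are not replicates. Kept UMIs totalled 4159545 to 15412799 per library. Nuclei with at least 1000 UMIs, thinned to 1000, gave the thinned shares of nuclei, and shallower nuclei were left out of them. Limits from 0 counts (3 counts) cover counting error only. Named genes were the members, markers of their leading class, genes in their names, the 3 features and 3 genes most alike over clusters with at least 50 nuclei, and features sharing a stem; cluster-leading genes and features within 10 list rows were added after values were seen. Alternatives were other clusterings, filters, normalizations and each library left out. The values of some coding markers are not reported here.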

Additional observations from a re-analysis of the deposited data

How the results depend on the processing

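The leading class of all 10 transcripts was the same under every alternative tried, and upper-quartile normalization, removal of marked doublets, resolution 1 and clusters without LINC- features changed no call in a leading class. Of the 29 pairs of member and class, 3 were called by edgeR, 6 by DESeq2, 13 of 80 without a filter on low counts, 1 with the replicate block, and 0 to 7 without 1 library, with 7 without control 1 and 0 without control 3, ALP 1 or ALP 3. LINC-RPL5-127 was no longer called without the upper limit on genes (log2 fold change −1.40, adjusted p = 0.0619), and the cause was not tested; without 1 library its value lay between −1.66 and −1.21. With the replicate number as a block it was −1.57 (adjusted p = 0.0831). The numbers gave no sign of pairing: correlations of same-numbered libraries lay between −0.13 and 0.07. LINC-FADS1-2 lay between 0.95 and 1.30 without 1 library. DESeq2 called LINC-RPL5-117 (−0.97), LINC-RPL5-39 (−0.88) and LINC-POU3F1-1 (1.64), and so did edgeR without the filter (−0.85, −0.76 and 1.77), which also called LINC-UBE2E1-11 (1.01). Without 1 library LINC-RPL5-117 lay between −1.17 and −0.68 and LINC-RPL5-39 between −1.08 and −0.64, both called without control 1. LINC-SUCLG1-12 lay between −0.63 and 0.17, turning without control 3. Differences in the share of nuclei, ALP minus control in percentage points, turned without thinning for LINC-SUCLG1-5 (−0.61, from 3.37) and LINC-NPM1-44 (−3.97, from 2.65). Without 1 library the share of LINC-SUCLG1-12 lay between −8.93 and 0.73, that of LINC-NPM1-44 between −1.35 and 6.69 and that of LINC-UBE2E1-11 between −0.21 and 10.7. With 3 libraries per group the exact test could not go below 0.1, so depth and number of libraries limit what low levels, such as 15 UMIs of LINC-POU3F1-1 in control 3, can show.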

Other observations

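The proportion of LINC-UBE2E1-11 to features listed near it separated the groups. The 5 Pyra-led features within 10 rows of it, LINC-UBE2E1-5, LINC-UBE2E1-6, LINC-UBE2E1-16, LINC-UBE2E1-18 and LINC-UBE2E1-20, had log2 fold changes between −2.33 and −0.71 in Pyra-like nuclei, none called, while LINC-UBE2E1-11 had 0.79. In Pyra-like nuclei of control 1, 2 and 3, there were 0.290, 0.458 and 0.930 UMIs of LINC-UBE2E1-11 for each UMI of the 5 features together, and 4.33, 2.30 and 5.47 in ALP 1, 2 and 3. In InN-like nuclei the ratios were 0.370, 0.827 and 0.968 in control and 4.68, 1.92 and 7.46 in ALP libraries. Without the upper limit on genes the Pyra-like ratios were 0.262 to 0.727 in control and 2.21 to 5.51 in ALP libraries. The two-sided exact permutation test of each gave p = 0.1, the smallest it can give with 3 libraries against 3. In Pyra-like nuclei 24.1% of single features had groups without overlap, and that share was not computed for ratios. LINC-UBE2E1-7, also within 10 rows and with 588 UMIs in kept nuclei, was led by InN-like nuclei and left out. The ratio was chosen after the values had been seen, both classes come from the same libraries, and whether these features share reads was not tested. The ratio is therefore a description of these libraries.

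The 5 features were themselves uneven. In Pyra-like nuclei they summed to 34.8, 306 and 462 CPM in control and 78.8, 61.3 and 60.8 CPM in ALP libraries, so control 1 was low for both sides of the ratio. LINC-UBE2E1-11 itself gave 29 UMIs there in control 1 and 1043 in ALP 1.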
